A study of Homo sapiens with 10 samples.

Results

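The extracellular matrix genes described here are the collagen chains, the laminin chains and a list of named matrix proteins, among them fibronectin (FN1), SPARC, periostin (POSTN), elastin (ELN) and 4 lysyl oxidases. They were chosen by gene symbol, without antisense rows, and 82 symbols of the rule were in the tables. Of these, 73 reached 10 counts in at least 1 library and are the members, out of 28281 symbols in all. The other 9 stayed under that minimum in every library: COL1A2, COL2A1, COL6A5, COL6A6, COL10A1, COL19A1, COL23A1, COL25A1 and BGN. By role the members were 9 fibrillar collagens, 8 basement membrane collagens, 19 other collagens, 12 laminins, 4 nidogens and basement membrane proteoglycans, 9 matricellular proteins with fibronectin, 5 elastic fibre proteins, 3 interstitial proteoglycans and 4 lysyl oxidases.

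Poly(A) RNA was sequenced from 2 human lung adenocarcinoma lines, NCI-H1944 (H1944 below) and A549, in 10 libraries. APEX1, which encodes the base excision repair endonuclease APE1, was knocked out (KO) or intact (WT). H1944 had 2 KO and 2 WT libraries, and A549 had 3 KO and 3 WT libraries. H1944 grew in RPMI1640 with sodium pyruvate and A549 in DMEM, both with serum, so line, medium and count table cannot be told apart. The labels do not say how the knockout was made, and give no clone or culture for any library, so the p-values rest on library-to-library spread alone, possibly a technical one. The A549 KO libraries are known by the numbers 16, 65 and 66, which state no genotype, and count as KO here since no other labelled group remained.

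The matrix is built in 2 main forms. Basement membranes, the sheets under epithelia, are networks of laminins and type IV collagen joined by nidogens and perlecan, and interstitial matrix is built of fibrillar collagens, fibronectin and microfibrils. Collagens are trimers of chains that are hydroxylated and folded in the endoplasmic reticulum, trimmed outside the cell and cross-linked by lysyl oxidases. In lung adenocarcinoma most interstitial matrix comes from fibroblasts, while the carcinoma cells themselves make basement membrane parts and a varying set of interstitial ones.

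Library totals ran from 18314224 to 30219850 counts. APEX1 mRNA averaged 85.7 ± 0.236 CPM (counts scaled by library size) in H1944 KO and 239 ± 0.748 CPM in H1944 WT (SD, n = 2 each), and 77.3 ± 27.6 CPM in A549 KO and 225 ± 53.2 CPM in A549 WT (SD, n = 3 each), lower in each KO library of both lines. The A549 libraries fell into 2 sets across genotype: KO 65 and WT 1 held 5945 and 4839 counts of the ribosomal RNA copy RNA28SN4, and KO 16, KO 66, WT 2 and WT 3 held 0. The sum of all ribosomal RNA genes, mitochondrial ones included where counted, ran the other way. It was 0.337% and 0.284% of counts in KO 65 and WT 1. In KO 16, KO 66, WT 2 and WT 3 it was 14.2%, 7.15%, 6.41% and 6.43%, with KO 16 highest. Nuclear and mitochondrial shares were not taken apart. The part of this in the A549 values was not tested. A549 values below are also compared inside each set. The biological coefficient of variation was 4.74% in H1944 and 39.0% in A549. Markers of endothelium summed to at most 2.54 CPM of 7 genes in any library, with KDR and ERG at 0 in all, while 7 leukocyte markers summed to 59.4 and 57.1 CPM in H1944 KO and 34.1 and 34.9 CPM in H1944 WT. CD68 carried most of that sum, at 52.3 ± 1.42 CPM in H1944 KO and 27.0 ± 1.19 CPM in H1944 WT (SD, n = 2 each), CD3E was at 0 in all libraries and PTPRC had at most 9 counts.

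Matrix genes took 0.480% ± 0.000529 of all counts in H1944 KO and 0.281% ± 0.0135 in H1944 WT (SD, n = 2 each), and the groups did not overlap. In A549 the share was 0.615% ± 0.247 in KO and 0.484% ± 0.158 in WT (SD, n = 3 each), with overlapping libraries. Inside the sets each KO library lay above its WT libraries, at 0.898% in KO 65 against 0.666% in WT 1, and at 0.499% and 0.447% in KO 16 and KO 66 against 0.392% and 0.394% in WT 2 and WT 3. Per kilobase of exon, TGFBI, a secreted protein that binds collagen and integrins, led in every group, with 317 CPM per kb in H1944 KO, 104 in H1944 WT, 261 in A549 KO and 240.0 in A549 WT. Behind it stood SPARC at 62.3 CPM per kb in H1944 KO and LAMB3, a laminin chain of epithelia, at 66.1 in H1944 WT. In A549 KO the second place went to FN1 at 72.0 ± 74.3, which overlapped LAMA5 at 68.1 ± 9.28 CPM per kb, and in A549 WT to LAMA5 at 63.6 ± 3.95 (SD, n = 3). By role, matricellular proteins and fibronectin held 49.1% of the members' summed CPM per kb in H1944 KO and 26.8% in H1944 WT, while laminins held 22.7% in H1944 KO and 42.1% in H1944 WT. In A549 these shares were 45.2% in KO and 43.9% in WT for the matricellular group and 22.7% in KO and 23.5% in WT for laminins. At least 10 counts in some library were reached by 64 members in H1944 and by 61 in A549.

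**Figure D1:**
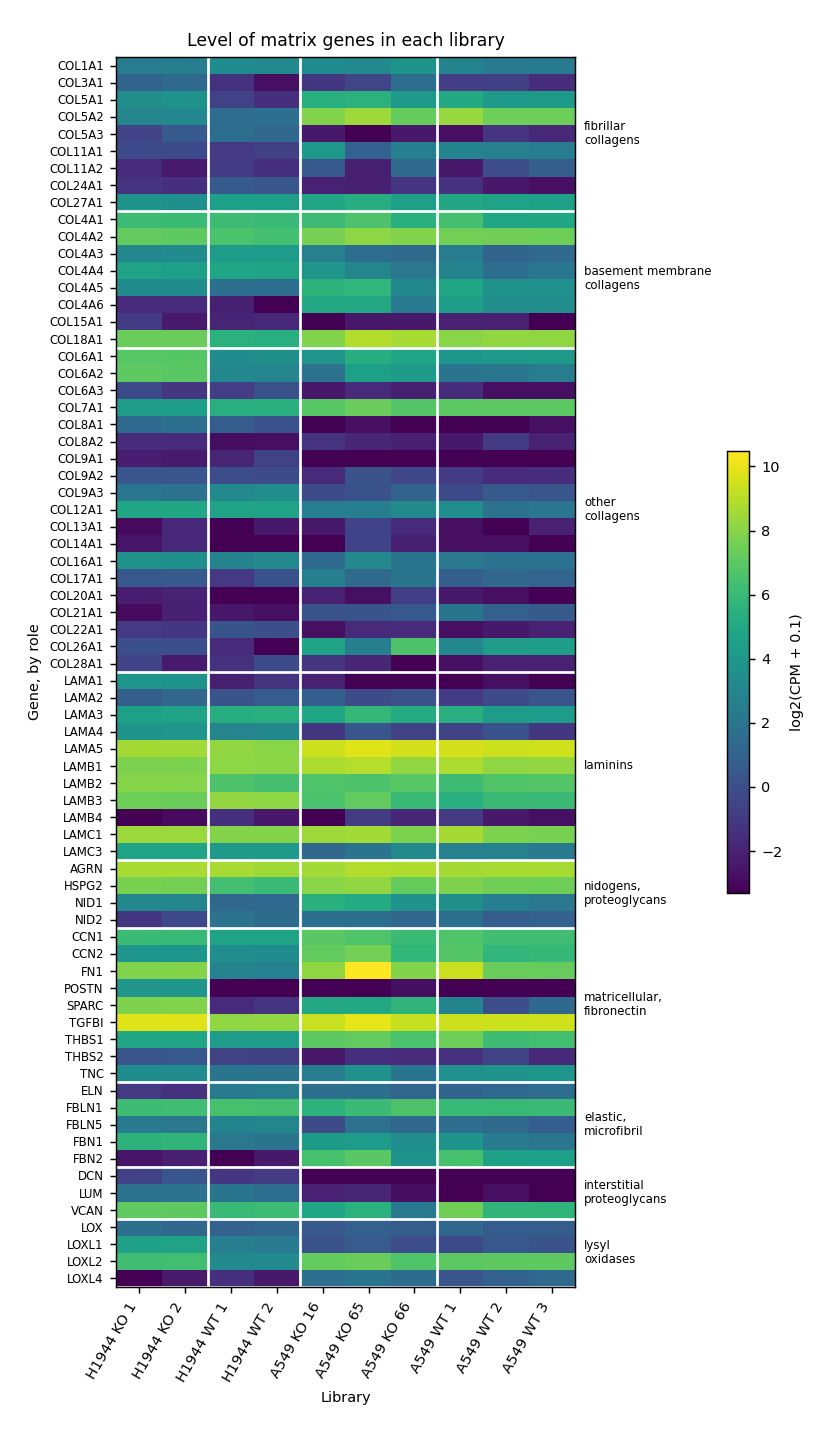
Level of the matrix genes reported (rows, grouped by role) in each of the 10 libraries (columns, KO before WT within each line), as log2 of CPM plus 0.1, not divided by length, so colours compare libraries along a row and not genes. SPARC, POSTN, COL5A1, LAMA1 and FN1 are bright in the H1944 KO columns beside the H1944 WT columns, and LUM, DCN and COL8A1 are dark in all A549 columns.

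In H1944, loss of APEX1 went with higher mRNA of fibronectin, SPARC, periostin, both main collagen VI chains, LAMA1, fibrillin-1 and lysyl oxidase-like 2, and with lower mRNA of elastin, nidogen-2 and several minor collagens. Of the 61 members tested, 36 rose and 16 fell at an edgeR adjusted p under 0.05, against 33.2% of all 16626 genes tested that rose and 33.9% that fell, and 9 were not called. With a change of at least 2-fold, 25 members rose and 8 fell, against 10.1% and 11.3% of all genes. The median log2 fold change of the members tested was 0.60, against -0.0065 over all genes. The low-count filter shapes these figures. Through the KO libraries only, 7 members passed it, and all 7 rose: COL26A1, COL3A1, COL5A1, DCN, LAMA1, POSTN and SPARC. Through the WT libraries only, 5 passed it, and 4 of them fell: COL22A1, COL24A1, ELN and NID2, with COL6A3 not called. For these members the direction of a call was largely set by how they came to be tested. Of the 48 that passed in both groups, 29 rose and 12 fell. The other 12 members were too low to test. In 1 fit of all 10 libraries, where the spread of A549 enters, 16 members rose and 3 fell, against 6.66% and 7.61% of all genes. Tested against a minimum 2-fold change, 21 rose and 4 fell, against 6.5% and 7.62% of all genes.

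**Figure D2:**
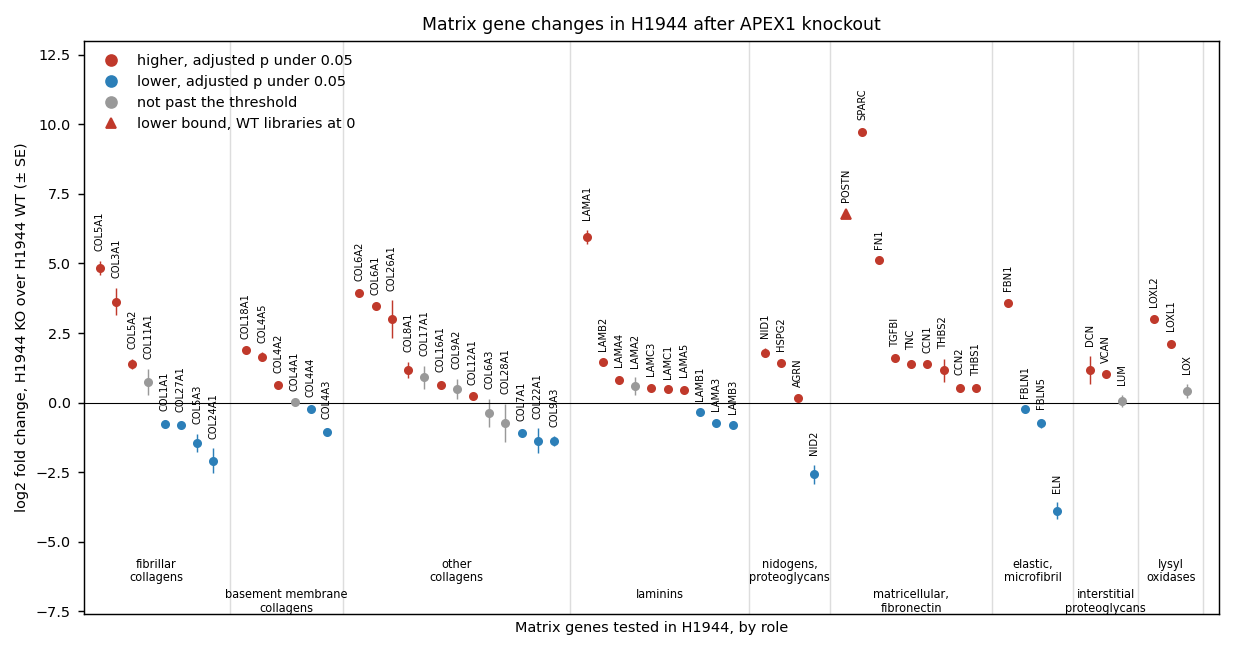
Log2 fold change of KO over WT in H1944 for the matrix genes tested and reported, grouped by role, with SE as bars; red rose, blue fell and grey did not pass an edgeR adjusted p under 0.05. POSTN is drawn as a triangle at its lower bound, since both WT libraries held 0 counts; all 9 matricellular genes lie above 0, and ELN lies lowest at -3.88.

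Matricellular proteins, which modulate how cells hold to matrix without being part of its fibres, and fibronectin, the adhesive glycoprotein on which collagen assembles, all rose in H1944 KO. This was 9 of 9 members, beside 33.2% of all genes, with a median log2 fold change of 1.39. SPARC and POSTN passed the low-count filter only through their KO libraries, so for them a rise was largely set in advance. SPARC, a secreted collagen-binding glycoprotein (chromosome 5, 151661096 to 151687165, minus strand, hg38), measured 228.7 and 232 CPM in KO and 0.217 and 0.327 CPM in WT, which is 6612 and 7066 counts against 5 and 7. By edgeR the log2 fold change was 9.71 (SE 0.097, adjusted p 7.65e-26). POSTN, a partner of collagen and integrins (chromosome 13, 37562583 to 37598844, minus strand), measured 421 and 450 counts in KO and 0 in both WT libraries. Against 3 counts per library that is at least 108-fold higher. FN1 (chromosome 2, 215360440 to 215436172, minus strand) measured 234.6 and 244 CPM in KO and 7.04 and 6.74 CPM in WT, or 5.12 on the log2 scale by edgeR (SE 0.058, adjusted p 6.76e-25). None of these 3 genes had a KO library near a WT library.

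The 3 stretches shown here lie before the starts of the members with the widest gaps between KO and WT in this role, each 250 bases on the minus strand, read 5′ to 3′, from RefSeq on GRCh38.p14. They are chr5:151686916-151687165 for SPARC, chr13:37598769-37599018 for POSTN and chr2:215436069-215436318 for FN1. The GENCODE annotation starts some transcripts of each gene further upstream, inside these stretches. Capitals mark any of 5 motifs searched on both strands: the TATA box as TATAAA, the CCAAT box, the AP-1 site as TGANTCA, the TEAD site as GGAATG and the G-quadruplex motif, which is 4 runs of at least GGG with gaps of 1 to 7 bases.
SPARC: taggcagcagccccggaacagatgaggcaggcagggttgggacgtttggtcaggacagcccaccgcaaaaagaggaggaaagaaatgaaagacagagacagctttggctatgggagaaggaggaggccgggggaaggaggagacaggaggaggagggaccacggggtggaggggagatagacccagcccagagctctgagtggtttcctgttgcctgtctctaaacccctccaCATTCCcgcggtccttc
POSTN: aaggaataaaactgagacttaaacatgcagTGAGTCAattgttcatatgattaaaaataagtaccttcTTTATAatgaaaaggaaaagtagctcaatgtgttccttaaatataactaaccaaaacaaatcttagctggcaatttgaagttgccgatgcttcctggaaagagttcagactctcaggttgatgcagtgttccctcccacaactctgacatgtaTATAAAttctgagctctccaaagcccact
FN1: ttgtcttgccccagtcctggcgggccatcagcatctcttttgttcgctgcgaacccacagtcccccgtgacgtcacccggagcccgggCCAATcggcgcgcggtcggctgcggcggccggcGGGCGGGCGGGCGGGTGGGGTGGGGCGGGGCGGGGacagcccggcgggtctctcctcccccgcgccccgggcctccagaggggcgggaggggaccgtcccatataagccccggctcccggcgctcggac
With the base next to the start as -1, SPARC held GGAATG, on the other strand, at -17 to -12. POSTN held TATAAA at -29 to -24, again on the other strand at -182 to -177, and TGAGTCA at -220 to -214. FN1 held CCAAT at -162 to -158 and overlapping G-quadruplex matches from -129 to -95. These are matches of letters only, and the shares of all promoters that hold each motif are given with the promoter windows of the whole group.

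The other 6 members of this role were higher in KO by smaller factors. TGFBI measured 909 and 913 CPM in KO and 297 and 303 CPM in WT, 3.04-fold higher by the fit. TNC (tenascin-C), CCN1 and THBS2 were 2.62-fold, 2.61-fold and 2.23-fold higher. CCN2 and THBS1 were 1.44-fold and 1.43-fold higher. CCN1 and CCN2 are secreted integrin ligands, and THBS1 and THBS2 are thrombospondins, regulators of adhesion and angiogenesis. THBS2 was low, with 33 and 39 counts in KO and 13 and 11 in WT, and lost its call in 6 of 11 alternatives.

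**Figure D3:**
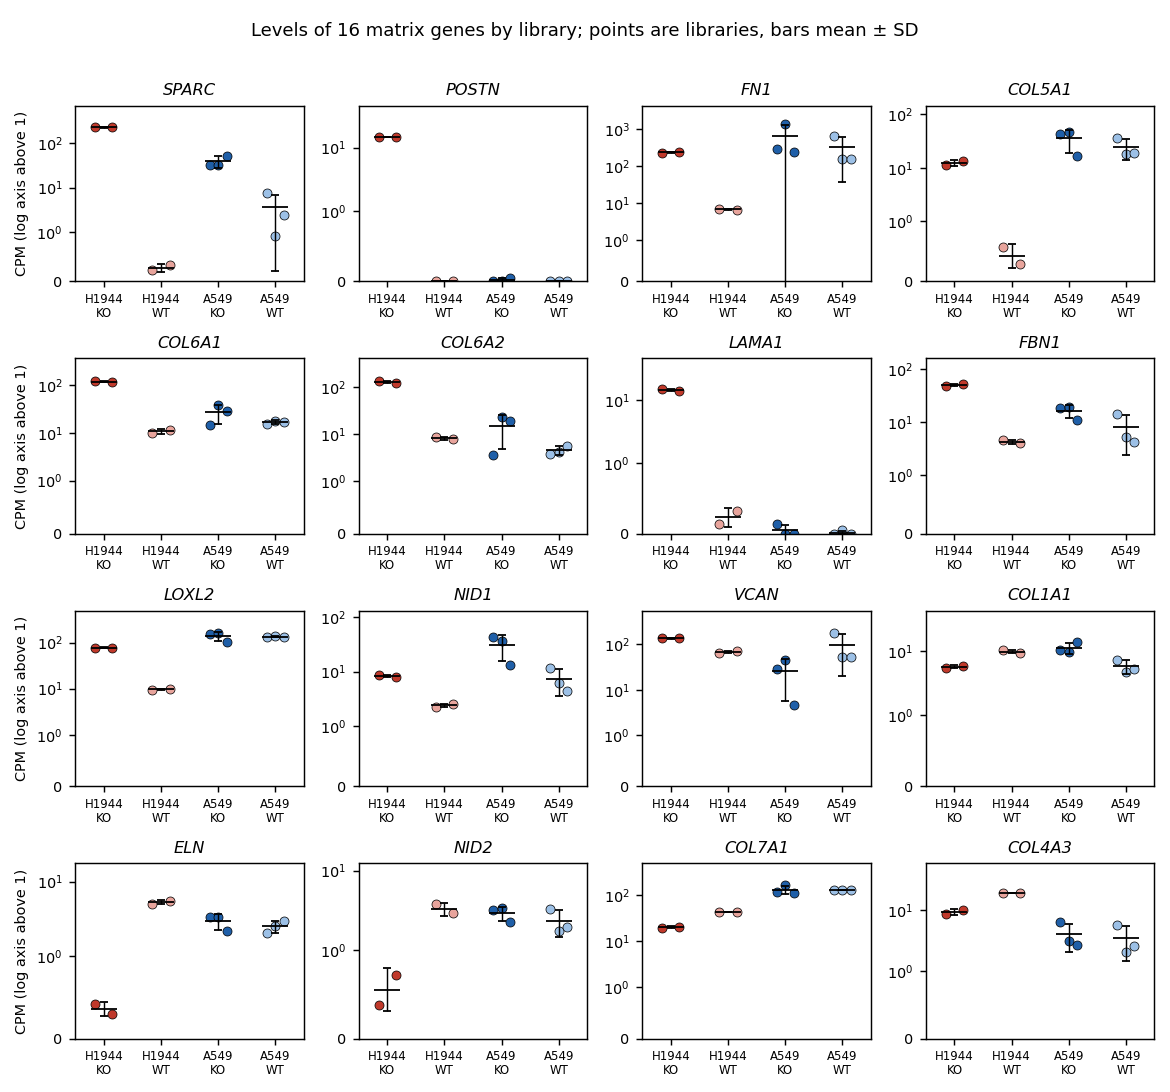
CPM of 16 matrix genes in each library (points), with group mean and SD as bars, on an axis that is linear below 1 CPM and logarithmic above; KO stands left of WT within each line. SPARC lies at 228.7 and 232 CPM in H1944 KO against 0.217 and 0.327 CPM in H1944 WT, and in A549 at 31.7 to 52.8 CPM in KO against 0.916 to 7.41 CPM in WT.

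Fibrillar collagens, the chains of the banded interstitial fibres, changed in both directions. Of 8 tested, 3 rose and 4 fell, beside 33.2% and 33.9% of all genes. COL5A1, a chain of the type V collagen that starts fibrils, measured 11.3 and 13.4 CPM in KO and 0.565 and 0.281 CPM in WT, 28.6-fold higher by the fit with an edgeR adjusted p of 1.29e-13. Its partner COL5A2 measured 7.64 and 8.61 CPM in KO and 2.95 and 3.23 CPM in WT, 2.63-fold higher. The third type V chain, COL5A3, went the other way, with 0.623 and 1.41 CPM in KO and 3.13 and 2.48 CPM in WT. COL3A1, the chain of type III collagen, measured 58 and 77 counts in KO and 7 and 1 counts in WT, or 3.62 on the log2 scale (SE 0.49). COL1A1, the main chain of type I collagen, measured 5.53 and 5.98 CPM in KO and 10.3 and 9.45 CPM in WT, a fall of 1.72-fold with an edgeR adjusted p of 7e-05. COL1A2, its partner in the common form of type I collagen, had 0 counts in both KO libraries and 3 and 7 in WT. COL24A1 and COL27A1, chains of minor fibrillar collagens, fell 4.25-fold and 1.74-fold. COL11A1 was not called, at a log2 fold change of 0.74 (SE 0.47).

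Both main chains of type VI collagen rose, the collagen that forms beaded microfilaments near cell surfaces. COL6A1 measured 120.3 and 117 CPM in KO and 9.91 and 11.6 CPM in WT, 11.02-fold higher. COL6A2, which lies 116 kb away on the same strand of chromosome 21, measured 132 and 122 CPM in KO and 8.60 and 7.77 CPM in WT, 15.4-fold higher. The edgeR adjusted p was 3.41e-21 for COL6A1 and 1.23e-21 for COL6A2. Per kilobase, COL6A1 and COL6A2 stood at 27.96 and 28.8 CPM per kb in KO and at 2.54 and 1.86 in WT. The third chain of the trimer, COL6A3, stood at 0.0516 CPM per kb in KO and 0.0672 in WT, and was not called at a log2 fold change of -0.37 (SE 0.50). COL6A5 and COL6A6, alternatives to it, were under the minimum in every library.

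Among the other collagens 6 of 13 tested rose and 3 fell, beside 33.2% and 33.9% of all genes. COL26A1 measured 27 and 28 counts in KO and 5 and 0 counts in WT, and COL8A1, a network-forming chain, was 2.27-fold higher. COL16A1 and COL12A1, which sit on fibril surfaces, were 1.54-fold and 1.17-fold higher, the second of these losing its call in 4 of 11 alternatives. Lower in KO were COL7A1, the chain of the anchoring fibrils that tie epithelium to stroma, at 19.4 and 20.5 CPM in KO against 41.8 and 42.99 CPM in WT, a 2.13-fold fall. COL9A3 and COL22A1 fell 2.60-fold and 2.59-fold, and COL22A1, with 12 and 11 KO counts and 25 and 20 WT counts, lost its call in 5 of 11 alternatives. COL17A1, the hemidesmosome collagen, measured 37 and 42 counts in KO and 9 and 22 counts in WT, and did not pass the test with an edgeR adjusted p of 0.0562.

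Of 6 basement membrane collagens tested, 3 rose and 2 fell, beside 33.2% and 33.9% of all genes. The type IV chains are coded in head-to-head pairs, COL4A1 with COL4A2, COL4A3 with COL4A4, and COL4A5 with COL4A6. COL4A1 measured 69.5 and 67.6 CPM in KO and 70.5 and 65.96 CPM in WT, a log2 fold change of 0.0056 (SE 0.049) that was not called, while COL4A2 measured 142 and 132 CPM in KO and 94.03 and 81.7 CPM in WT, 1.56-fold higher with an edgeR adjusted p of 4.02e-06. A test of one chain's change against the other's was not run. In GENCODE the COL4A2 start lies 1.42 kb inside COL4A1, so there the genes overlap and the stretch printed below lies within COL4A2. How reads in the overlap were counted is not given, and its part in the unlike changes was not tested. The 126 bases between the RefSeq starts of this pair are printed because they lie between the starts of 2 genes with unlike changes (chr13:110307158-110307283, GRCh38.p14, plus strand, so COL4A1 lies to the left and COL4A2 to the right), with the motif match CCAAT at bases 22 to 26 in capitals.
COL4A1-COL4A2: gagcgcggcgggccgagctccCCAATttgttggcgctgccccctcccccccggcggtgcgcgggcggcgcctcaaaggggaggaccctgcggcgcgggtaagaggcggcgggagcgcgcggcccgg
COL4A3 and COL4A4, whose GENCODE starts are 0.112 kb apart, both fell in KO, 2.05-fold and 1.17-fold, and COL4A4 lost its call in 5 of 11 alternatives. COL4A5 measured 10.2 and 9.86 CPM in KO and 3.26 and 3.13 CPM in WT, 3.13-fold higher, while its neighbour COL4A6 had 6 and 7 counts in KO and 3 and 0 in WT and was too low to test. COL18A1, the source of endostatin, measured 166 and 159.7 CPM in KO and 45.9 and 42.5 CPM in WT, 3.68-fold higher with an edgeR adjusted p of 3.87e-19.

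Laminins, the cross-shaped trimers that start a basement membrane, gave 7 rises and 3 falls among 11 tested chains. Of all genes, 33.2% rose and 33.9% fell. LAMA1, the alpha chain of the early embryonic laminin, measured 14.6 and 13.7 CPM in KO and 0.130 and 0.327 CPM in WT, which is 422 and 418 counts against 3 and 7. By edgeR this was 5.94 on the log2 scale (SE 0.25, adjusted p 5.97e-15). LAMB2, a beta chain, measured 251 and 254 CPM in KO and 99.2 and 84.99 CPM in WT, 2.74-fold higher. LAMA4, LAMC3, LAMC1 and LAMA5 were 1.76-fold, 1.43-fold, 1.39-fold and 1.37-fold higher. LAMA3 and LAMB3, an alpha and a beta chain of epithelial laminin, fell 1.66-fold and 1.76-fold. LAMB3 measured 171 and 167 CPM in KO and 308 and 285 CPM in WT. Of the chains of laminin-511, LAMA5 and LAMC1 rose and LAMB1 fell 1.27-fold.

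Among the nidogens, which bridge laminin and type IV collagen, NID1 measured 8.61 and 8.05 CPM in KO and 2.26 and 2.53 CPM in WT, and NID2 measured 0.380 and 0.723 CPM in KO and 3.78 and 2.90 CPM in WT. NID1 was 3.48-fold higher and NID2 fell 5.99-fold, with edgeR adjusted p of 1.09e-08 and 8.25e-07. HSPG2 (perlecan), the basement membrane heparan sulphate proteoglycan, measured 209 and 195 CPM in KO and 82.2 and 68.7 CPM in WT, 2.67-fold higher. AGRN (agrin) was 1.11-fold higher, a call lost in 4 of 11 alternatives.

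Elastic fibre genes gave 1 rise and 3 falls among 4 tested, beside 33.2% and 33.9% of all genes. FBN1 (fibrillin-1), the backbone of microfibrils, measured 48.4 and 52.3 CPM in KO and 4.52 and 3.93 CPM in WT, 11.9-fold higher with an edgeR adjusted p of 2.55e-18. ELN (elastin), the core of the elastic fibre, measured 0.415 and 0.296 CPM in KO and 5.04 and 5.52 CPM in WT, a 14.7-fold fall with an edgeR adjusted p of 1.94e-10. FBLN5 and FBLN1, fibulins that bind elastic fibres, fell 1.67-fold and 1.17-fold. Of the interstitial proteoglycans, VCAN (versican), a large hyaluronan binder, was 2.02-fold higher at 139 and 135 CPM in KO and 65.6 and 69.9 CPM in WT. DCN (decorin), a small fibril-binding proteoglycan, measured 16 and 36 counts in KO and 8 and 9 counts in WT, and its edgeR adjusted p of 0.0455 was lost in 8 of 11 alternatives. LUM (lumican), its neighbour 71.3 kb away, was not called, at a log2 fold change of 0.055 (SE 0.21).

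Of the lysyl oxidases, which cross-link collagen and elastin, LOXL2 and LOXL1 rose. LOXL2 measured 77.4 and 77.9 CPM in KO and 9.56 and 9.87 CPM in WT, 7.99-fold higher, and LOXL1 measured 23.8 and 24.7 CPM in KO and 5.996 and 5.29 CPM in WT, 4.30-fold higher. Their edgeR adjusted p were 1.33e-19 and 1.88e-13. LOX itself was not called, at a log2 fold change of 0.41 (SE 0.25), and LOXL4 had at most 6 counts.

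The enzymes that prepare collagen are not members and were counted as fixed lists. Of 18 genes for folding and modifying collagen, 14 rose and 1 fell in H1944 KO, with a median log2 fold change of 0.79, beside 33.2% and 33.9% of all genes. PLOD2, the lysyl hydroxylase of collagen telopeptides, averaged 446 ± 6.10 CPM in KO and 55.6 ± 1.24 CPM in WT (SD, n = 2 each), which is 8.02-fold higher by the fit. COLGALT2, a collagen galactosyltransferase, was higher by 3.37 on the log2 scale from 54 and 45 KO counts and 4 and 3 WT counts, and P3H2, a prolyl 3-hydroxylase, fell by 0.45. Of 7 genes for trimming procollagen, 4 rose and 2 fell (57.1% and 28.6%), and of 6 genes for the export of large collagens, 2 rose and 2 fell (33.3% each). The procollagen N-proteinases ADAMTS14 and ADAMTS2 had 0 counts in both WT libraries and were at least 10.4-fold and 8.19-fold higher in KO against 3 counts per library, and TLL1 and BMP1, C-proteinases of one family, fell by 2.46 and 0.24 on the log2 scale. In the export list TMED10 and SEC23A rose by 0.17 each and MIA2 and MIA3 fell by 1.05 and 0.41.

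Some markers of other cell types also differed between KO and WT in H1944. The endothelial sum overlapped, at 1.52 and 1.71 CPM in KO and 1.69 and 1.45 CPM in WT. Over 12 fibroblast markers that are not matrix genes, the sum was 253 to 254.7 CPM in KO and 84.99 to 85.6 in WT. S100A4, TAGLN and TWIST2 carried it. At least 10 counts were reached by 6 and 7 of the 12 in KO and by 6 in each WT library. PDGFRA was at 0 in both KO libraries and above 0 in both WT libraries. PRRX1, PDPN and THY1 had at most 8 counts in any H1944 library. In A549 the same list summed to 545, 517 and 560 CPM in KO 16, 65 and 66. It summed to 340, 923 and 917 CPM in A549 WT 1, 2 and 3. Epithelial markers in H1944 moved in both directions. The sum of the 8 listed was 17595 and 17170 CPM in KO and 9862 and 9701 CPM in WT. Of these, KRT7, KRT19, CLDN4 and ESRP1 are not given singly. CDH1 averaged 7.87 ± 0.263 CPM in KO and 207 ± 0.424 CPM in WT, and EPCAM 0.931 ± 0.248 CPM in KO and 68.9 ± 1.86 CPM in WT (SD, n = 2 each). The keratins KRT8 and KRT18 were higher in KO, by 0.81 and 0.98 on the log2 scale. The part of these shifts in the matrix changes was not tested, and in bulk RNA a changed share of cells and changed mRNA per cell cannot be told apart.

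In A549 none of the 55 members tested passed an edgeR adjusted p under 0.05, where 0.00633% of all 15806 genes rose and 0% fell. APEX1, the targeted gene, did not pass this test either, although it was lower in each A549 KO library. The lack of calls therefore does not show that matrix genes were unchanged in A549. At an unadjusted p under 0.05 there were 8 of 55 members, against 5.66% of all genes. Voom with limma also called 0 members, and DESeq2 called 2 higher, SPARC and NID1, against 0.512% of all genes. Of the 55, 51 passed the low-count filter in both genotypes and 4 through a mix of libraries, and the other 18 members were too low to test. The median log2 fold change of the members was 0.36, against 0.018 over all genes, and ran from 0.26 to 0.54 when each library was left out. A value above 0 was seen in 49 of the 55. The share of all genes above 0 was not counted, and members measured in the same libraries are not independent. With a term for the 2 sets, which lowered the biological coefficient of variation to 24.2%, edgeR again called 0 members, with adjusted p of 0.139 for SPARC and 0.130 for FN1. APEX1 had an edgeR adjusted p of 0.122 in that fit, and 0.00146 in DESeq2 without the term. In 6 members each KO library lay above each WT library, against 5.64% of all genes, and in 2 each lay below, against 4.98%.

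SPARC measured 31.7, 33.2 and 52.8 CPM in A549 KO 16, 65 and 66 and 7.41, 0.916 and 2.45 CPM in A549 WT 1, 2 and 3. By edgeR the log2 fold change was 3.45 (SE 0.74, adjusted p 0.562). Set by set it was 2.15 for KO 65 against WT 1, and 4.16 and 4.89 for KO 16 and KO 66 against WT 2 and WT 3, so that all 3 KO libraries lay above their WT libraries. NID1 measured 43.6, 36.6 and 13.5 CPM in KO and 11.7, 6.13 and 4.43 CPM in WT, with 3.02, 1.63 and 1.34 within the sets for KO 16, 65 and 66. COL1A1 measured 10.4, 9.76 and 14.01 CPM in KO and 7.41, 4.81 and 5.32 CPM in WT, with within-set values of 1.02, 0.39 and 1.45. The other 3 members with all KO libraries above all WT libraries were COL17A1, LOXL4 and COL4A2, at log2 fold changes of 1.08, 0.87 and 0.44.

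VCAN ran the other way in A549, at 28.3, 45.3 and 4.67 CPM in KO 16, 65 and 66 and 180.0, 52.2 and 51.5 CPM in WT 1, 2 and 3. By edgeR the log2 fold change was -1.86 (SE 0.89, adjusted p 0.939). COL21A1 also had each KO library below each WT library, at a log2 fold change of -1.06. FN1 measured 289, 1435 and 241 CPM in KO and 659, 159.9 and 158 CPM in WT. KO 65 and WT 1 were its highest libraries in each genotype, and the log2 fold change of 0.99 (SE 0.91) turned to -0.28 without KO 65 and was 2.08 without WT 1. Within the sets FN1 gave 0.87, 1.12 and 0.60 for KO 16, 65 and 66. COL6A2 measured 3.62, 22.9 and 18.5 CPM in KO and 3.83, 4.17 and 5.56 CPM in WT, so that KO 16 lay with the WT libraries. COL3A1 was highest in KO 66, at 67 counts, while KO 16 and KO 65 held 8 and 14 and the WT libraries 10, 11 and 5. POSTN had 1 count in KO 66 and 0 in the other 5 A549 libraries, which at 3 counts allows up to 0.143 CPM.

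**Figure D4:**
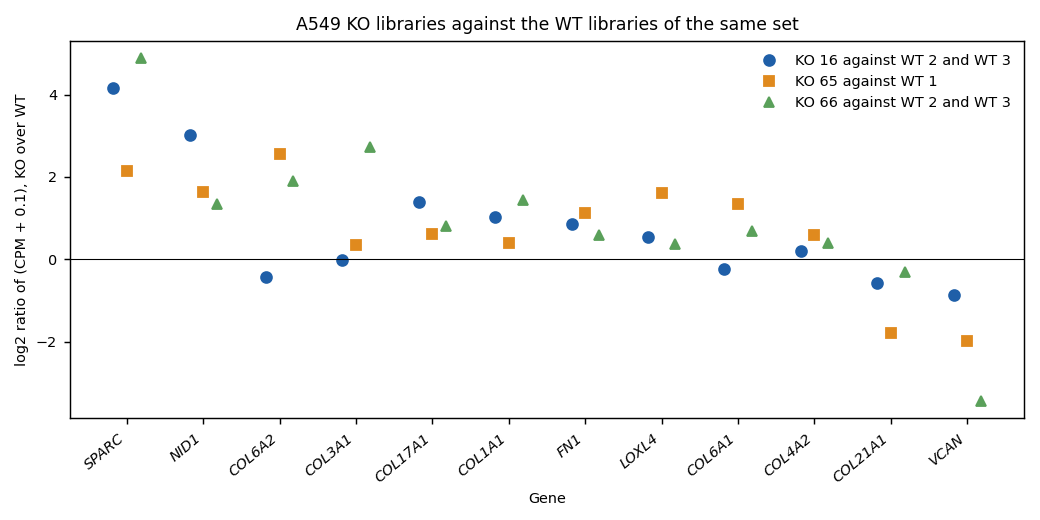
Log2 ratio of CPM plus 0.1 of each A549 KO library over the WT libraries of its own set, for 12 matrix genes; circles are KO 16, squares KO 65 and triangles KO 66. SPARC and NID1 lie above 0 in all 3 KO libraries, VCAN lies below 0 in all 3, and COL6A2 and COL6A1 lie above 0 in KO 65 and KO 66 and below 0 in KO 16.

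The enzyme lists gave no call in A549 by edgeR, with medians of -0.12 for collagen folding and modification, 0.016 for trimming and 0.085 for export.

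The change in A549 was set against the change in H1944 in 1 fit of all 10 libraries. Of 67 members tested, 4 had a higher change in A549 and 8 a lower one at an edgeR adjusted p under 0.05, against 4.1% and 2.85% of all 17677 genes. DESeq2 gave 5 higher and 16 lower, against 7.14% and 5.97% of all genes, and a term for the A549 sets gave 6 and 15, against 8.6% and 7.01%. The A549 change minus the H1944 change was 4.10 for ELN (SE 0.46, adjusted p 0.00134), which had log2 fold changes of 0.25 in A549 and -3.88 in H1944 in the fit of each line. It was 2.92 for NID2, 1.74 for COL1A1 and 1.11 for COL7A1. The lower ones were -6.25 for SPARC (SE 1.09, adjusted p 0.0101), -4.29 for COL5A1, -2.94 for LOXL2 (SE 0.28, adjusted p 0.000673), -2.75 for COL6A1, -1.96 for LOXL1, -1.52 for COL18A1, -1.48 for TGFBI and -1.32 for LAMB2. SPARC had positive log2 fold changes in both lines, and the difference for it is one of size. For FN1 the difference of -4.11 (SE 1.29) did not pass by edgeR, with an adjusted p of 0.106. It passed at -4.25 (SE 0.20, adjusted p 2.39e-05) with a term for the A549 sets in edgeR, and at -4.13 (adjusted p 0.0373) in DESeq2. CCN1, FBN1, TNC and VCAN likewise passed in both of these fits and not in edgeR without the term. POSTN passed in DESeq2 (adjusted p 0.000344) but in neither edgeR fit. ELN and LOXL2 kept their call in all 15 alternatives, and the other 10 lost it in at least 1: SPARC and COL6A1 without either H1944 WT library, with adjusted p of up to 0.0811 and 0.0683, and COL5A1 without H1944 WT 2 and in limma-voom, with up to 0.0733. NID2 lost it in 4 of the 15, COL1A1, COL7A1, LOXL1, COL18A1 and TGFBI in 6 each, and LAMB2 in 8, with adjusted p of up to 0.184 among them, mostly where an H1944 library or A549 WT 2 or WT 3 was left out.

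**Figure D5:**
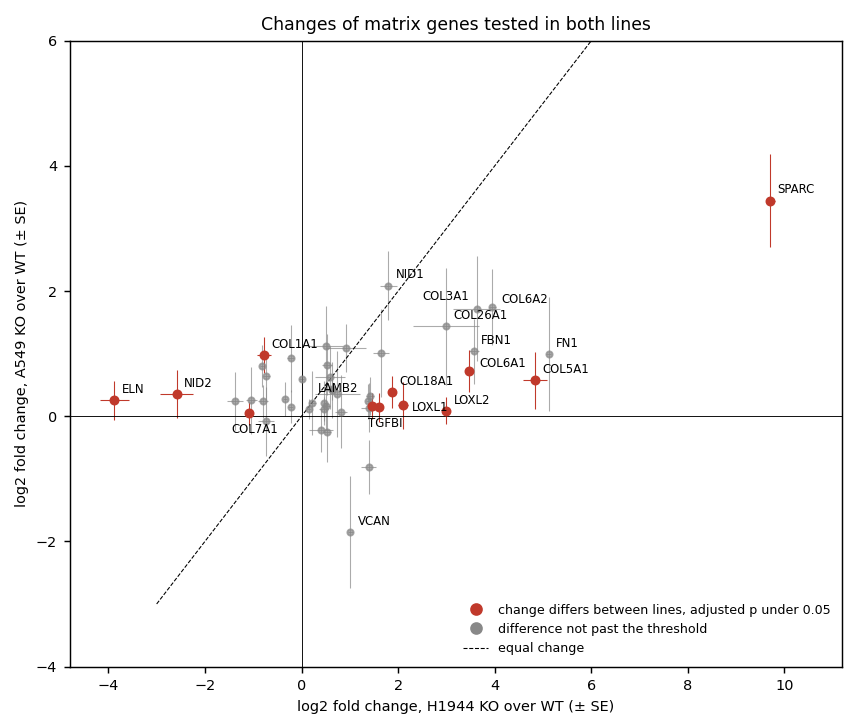
Log2 fold change of KO over WT in A549 (vertical) against H1944 (horizontal) for the matrix genes tested in both lines and reported, with SE as bars; red marks genes whose change differed between lines at an edgeR adjusted p under 0.05, and the dashed line marks equal change. SPARC lies at 9.71 in H1944 and 3.45 in A549, ELN at -3.88 in H1944 and 0.25 in A549.

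With APEX1 intact many matrix genes differed between the lines. Of 67 members tested in A549 WT against H1944 WT, 24 were higher and 19 lower by edgeR (35.8% and 28.4%), against 21.2% and 22.2% of all genes. The H1944 WT libraries held 2935 and 4963 counts of RNA28SN4, like A549 WT 1 and unlike A549 WT 2 and WT 3. The 2 sets are thus partly mixed with the difference between lines. Of the called members, NID1 and LAMA1 lost their call without A549 KO 65 and WT 1. COL5A2 averaged 225 ± 85.4 CPM in A549 WT (SD, n = 3) and 3.09 ± 0.193 CPM in H1944 WT (SD, n = 2), a log2 fold change of 6.18 with an adjusted p of 4.83e-05. FN1 averaged 325 ± 289 CPM in A549 WT and 6.89 ± 0.214 CPM in H1944 WT. SPARC averaged 3.59 ± 3.40 CPM in A549 WT and 0.272 ± 0.0779 CPM in H1944 WT. Both were called higher, with adjusted p of 0.00535 and 0.00988, and both lost the call without either H1944 WT library, SPARC also in limma-voom. FBN2, the fibrillin of early microfibrils, had 1838, 495 and 476 counts in A549 WT and 0 and 2 counts in H1944 WT. COL4A6 had 431, 241 and 233 counts in A549 WT and 3 and 0 in H1944 WT. On the other side LUM had 0, 1 and 0 counts in A549 WT and 91 and 67 in H1944 WT, COL8A1 had 0, 0 and 1 counts against 37 and 22, and DCN had 0 in all A549 WT libraries against 8 and 9. COL5A3 was 14.6-fold lower in A549 WT than in H1944 WT by the fit, at 1, 7 and 4 counts in A549 WT against 72 and 53 in H1944 WT. LOXL2 averaged 132 ± 2.56 CPM in A549 WT and 9.71 ± 0.220 CPM in H1944 WT, and COL5A1 23.9 ± 9.85 and 0.423 ± 0.201 CPM. H1944 KO held 77.7 ± 0.335 CPM of LOXL2 and 12.4 ± 1.48 CPM of COL5A1, between the WT levels of both lines, a description with no test. These 2 genes are examples and do not stand for all members that rose. SPARC and TGFBI, at means of 230 and 911 CPM in H1944 KO, lay above the WT means of both lines.

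RefSeq promoter windows of 300 bases, from 250 before to 50 after a start, were matched by symbol for 55 of the 73 members, giving 70 windows, beside 35114 windows of 27303 genes. The G-quadruplex motif was in 50% of the members' windows and 25% of all windows. Windows of the members were richer in G and C, with a median of 63.7% against 58.7% in all, and the part of base composition in this share was not tested. The motif stood in 59.3% of the 27 windows of 25 members that rose in H1944 KO. It stood in 43.8% of the 16 windows of 12 members that fell. Median G and C content was 68.3% and 64%. Genes with several windows weigh more in these shares. Among members that fell, LAMB3 and COL24A1 had several windows and none held the motif. Both windows of COL5A1, which rose, held it, and COL18A1 and FBLN5 had windows with and without it. Shares by gene were not compared. In the same split TATAAA stood in 18.5% and 12.5%, CCAAT in 22.2% and 31.2%, TGANTCA in 3.7% and 12.5%, and GGAATG in 22.2% and 0%. TATAAA was in 12.9% of the members' windows and 11.5% of all, CCAAT in 31.4% and 34.6%, TGANTCA in 4.29% and 7.71%, and GGAATG in 11.4% and 14%. A window without a match says only that these letters are not in it.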

How the data were processed

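The authors deposited unnormalized counts of reads for each gene symbol, in 1 table per line. Per the submitters' processing notes, reads were trimmed with Trim Galore 0.5.0, aligned with HISAT2 2.1.0 to hg38 and counted with featureCounts 1.6.4; strandedness, gene models and the handling of multi-mapped reads are not given in the sources used here, so values of genes that overlap others or antisense rows, such as COL4A1 and COL4A2, are uncertain. Genes were kept by filterByExpr (minimum count 10), scaled by TMM and tested by quasi-likelihood with robust settings (edgeR 4.0.16, R 4.3.3), within each line, and in 1 fit of all 10 libraries for the difference between lines and for A549 WT against H1944 WT. Benjamini-Hochberg adjustment ran over all genes tested, and adjusted p-values come from edgeR unless another tool is named. SE was taken as the size of the log2 fold change divided by the root of the F statistic. Alternatives used limma 3.58.1 and DESeq2 1.42.0. CPM is on the scale of all 10 libraries, which differs from the scale of each line by at most 0.0561 (log2). A count of 0 was read as up to 3 counts per library, which covers counting error only, since reads are not independent molecules. Coordinates and exon lengths are from GENCODE v29 on hg38. The scripts were tested on simulated data. No per-sample column was left out.

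The members and lists were chosen with earlier results of these data known. Named genes are the markers SPARC, POSTN, FN1 and COL1A1, up to 3 largest rises and falls per role among members called in H1944, members of A549 with libraries apart, up to 5 differences each way between lines, up to 4 each way between WT groups, and partner chains. TGFBI, CCN1, CCN2, TNC, THBS1, THBS2, COL11A1, COL12A1, COL16A1, LAMC3, LOX, COL1A2 and the markers of cell types fall outside that rule and were picked with their values in view, mostly to cover every called member of a role.  In H1944 the deviations of same-numbered libraries correlated at 0.0138, so the numbers do not pair them. Counts cover all members, and 1 of them is not reported here by name.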

Additional observations from a re-analysis of the deposited data

Results flagged for a closer look

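In 12 genes the change after APEX1 loss differed between the lines, by the edgeR test of the difference itself. Each value is the A549 change minus the H1944 change, on the log2 scale. ELN at 4.10, NID2 at 2.92, COL1A1 at 1.74 and COL7A1 at 1.11 fell in H1944, while none of them passed the test within A549. SPARC at -6.25, COL5A1 at -4.29, LOXL2 at -2.94, COL6A1 at -2.75, LOXL1 at -1.96, COL18A1 at -1.52, TGFBI at -1.48 and LAMB2 at -1.32 rose in H1944, while none of them passed the test within A549 by edgeR. SPARC and COL1A1 had each A549 KO library above each A549 WT library, and the A549 libraries of the other 10 genes overlapped between genotypes. ELN and LOXL2 kept the call in all 15 alternatives, and the other 10 lost it in 2 to 8 of them.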

How the results depend on the processing

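In H1944, leaving out each library gave 33 to 36 members higher and 14 to 17 lower, DESeq2 gave 32 and 14, limma-voom and the other scaling (RLE) 36 and 16 each, no low-count filter 37 and 16, and the replicate block 35 and 16. Of the 52 called members, 46 kept their call in every fit of the H1944 libraries alone against no change, and 0 changed sign in any alternative. The spread of all 10 libraries gave 16 and 3, the test against a minimum 2-fold change 21 and 4, and a required 2-fold change 8 lower. Uncalled values changed sign for COL4A1, where leaving out libraries gave -0.041 to 0.053 (-0.01 without KO 1), for COL6A3, -0.988 to 0.22 (0.07 without KO 2), and for LUM, -0.10 to 0.23. In A549, DESeq2 called 2 members higher where edgeR called 0, and FN1 ranged from -0.28 without KO 65 to 2.08 without WT 1. For the difference between lines DESeq2 gave 16 lower, a term for the 2 sets of A549 libraries 15 lower, and leaving out each library 1 to 7 higher and 1 to 10 lower, the lowest of both without H1944 WT 2. A549 WT against H1944 WT gave 16 to 25 higher and 12 to 22 lower when each library was left out, 12 without H1944 WT 2. No fit paired by replicate number could be made in A549. The sample titles number its KO samples, but which KO library is which titled sample is not given. A term for its 2 sets called 0 members. When libraries were left out of the comparisons between lines, calls over all genes also varied widely. The ranges for those comparisons are therefore not particular to matrix genes. The cause of these shifts was not tested. A lone library left in a group was assumed to vary like the others. Members below 10 counts in a group are limited by depth.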
